A study of Homo sapiens with 40 samples.

Results

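Interleukin receptor genes were followed in lymphoma cells that were given a cytokine, or in which cytokine or NF-kB signalling was blocked. The 6 genes are IL2RA, IL2RB, IL6R, IL10RA, IL10RB and IL21R. They were chosen as named interleukin receptor chains, and every probe whose only listed gene symbol was one of them was taken. This gave 25 of the 15246 probes on the array and 6 of the 4604 genes that could be named. IL2RB and IL21R had 6 probes each, IL2RA had 5, IL10RA and IL6R had 3 each and IL10RB had 2. All 6 genes were tested in each of the 6 experiments.

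The study used OCI-Ly3 and OCI-Ly10, established human lines of diffuse large B cell lymphoma of the activated B cell-like subgroup, and asked how STAT3 and NF-kB signalling act together in this disease. Each of 40 arrays set treated RNA (Cy5) against control RNA of the same line (Cy3), so each value is a log2 ratio of treated over control. OCI-Ly3 cells received IL-10 at 50 ng/ml for 1 to 96 h (10 arrays). OCI-Ly10 cells received IL-6 at 50 ng/ml for 0.5 to 24 h (8 arrays), or JAK inhibitor I at 5 uM for 3 and 6 h (4 arrays). STAT3 was targeted in OCI-Ly10 by electroporation of a 4 uM siRNA pool, against no siRNA, for 8, 24 and 48 h (5 arrays). An IkB super-repressor, a form of the NF-kB inhibitor that resists degradation, was induced with 20 ng/ml doxycycline in OCI-Ly3 for 1 to 6 h (9 arrays) and in OCI-Ly10 for 1.5 to 24 h (4 arrays). A non-targeting siRNA and doxycycline without the super-repressor were not analysed here, so siRNA delivery or doxycycline as such cannot be told apart from the intended block. The IL-10 experiment used OCI-Ly3 alone and the IL-6 experiment OCI-Ly10 alone, so cytokine and line cannot be told apart either.

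Interleukin receptors are built from chains that bind the cytokine and chains that pass the signal to JAK kinases, which activate STAT factors. IL10RA binds IL-10 and pairs with IL10RB, a chain shared with receptors for IL-22, IL-26 and the lambda interferons; this receptor signals mainly through STAT3. IL6R binds IL-6 and signals through the partner chain IL6ST, also to STAT3. IL2RA and IL2RB are the alpha and beta chains of the IL-2 receptor; the beta chain also serves IL-15. IL21R binds IL-21, a cytokine of T helper cells that drives B cell differentiation, and like IL2RB it pairs with the common gamma chain, IL2RG.

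Two-channel ratios carry no level, so neither the abundance of the chains nor the identity of the lines could be checked against B cell markers. Fewer cells of a type and less RNA per cell also cannot be told apart in such bulk samples. The labels do not say whether replicate arrays came from separate cultures, and p-values then measure only the spread between these arrays. STAT3 fell with its siRNA (-1.59 ± 0.17, SE, limma adjusted p = 6.41e-05, above 0 on 0 of 4 arrays at 24 and 48 h). NFKBIA, an NF-kB target that encodes IkB alpha, fell with the super-repressor in OCI-Ly3 (-1.61 ± 0.10) and in OCI-Ly10 (-1.03 ± 0.15). SOCS3, a STAT3 target, rose with IL-6 (0.77 ± 0.10, 7 of 7 arrays above 0), but read 0.22 with the JAK inhibitor and 0.19 with STAT3 siRNA, neither called (adjusted p = 0.441 and 0.438).

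Promoter sequence was listed by RefSeq (GRCh38.p14) for 5 of the 6 genes, all but IL2RB. IL2RA and IL10RA are shown because they moved in opposite directions with both cytokines. In that build IL2RA spans chr10:6010689-6062367, IL2RB chr22:37125838-37175118, IL6R chr1:154405343-154469450, IL10RB chr21:33266367-33310182 and IL21R chr16:27402174-27452042; where in each gene the probes lie is not stated. Each line gives the 250 bases before the listed transcript start, 5′ to 3′ on the gene's strand, and capitals mark matches to the NF-kB consensus decamer, searched on both strands. The IL2RA window is chr10:6062368-6062617 on the minus strand and the IL10RA window chr11:117989695-117989944 on the plus strand; the latter lies inside the IL10RA gene (chr11:117986394-118003037), whose annotation begins farther upstream.
IL2RA: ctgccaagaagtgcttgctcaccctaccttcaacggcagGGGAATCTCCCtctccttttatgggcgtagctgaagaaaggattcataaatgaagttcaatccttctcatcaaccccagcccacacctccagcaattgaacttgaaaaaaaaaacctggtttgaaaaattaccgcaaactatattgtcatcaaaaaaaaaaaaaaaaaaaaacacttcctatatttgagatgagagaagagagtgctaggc
IL10RA: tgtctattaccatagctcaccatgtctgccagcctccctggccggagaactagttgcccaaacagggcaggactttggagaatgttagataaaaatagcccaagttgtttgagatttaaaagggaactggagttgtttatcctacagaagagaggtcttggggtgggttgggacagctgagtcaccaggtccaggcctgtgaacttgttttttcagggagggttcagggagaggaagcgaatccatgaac
The 2 matches in IL2RA overlap, since the site reads nearly the same on both strands, and begin 211 and 210 bases before the start. This decamer was in 5.21% of the 35116 promoter windows of the same length, and no other of the 5 receptor genes held it. The STAT motif TTCNNNGAA, which is its own reverse complement, was in 6.57% of all windows and in 0 of the 5. For each gene only the first listed window was searched, and that of IL21R (chr16:27427021-27427270) also lies inside its gene. A match describes letters only, and a window without one says only that these letters are not in it.

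IL10RA, the ligand-binding chain of the IL-10 receptor, fell in OCI-Ly3 cells given IL-10. Its log2 ratios were -0.35 and -0.48 on the 2 arrays at 1 h, -1.18 and -0.82 at 3 h, -1.46 and -1.23 at 6 h, -0.67 and -0.75 at 24 h, -0.32 at 48 h and -0.24 at 96 h. All 10 arrays were below 0, the lowest at 6 h and the highest at 96 h. The mean over the 6 time points was -0.67 ± 0.05 (SE, limma adjusted p = 5.02e-09), the 44th lowest of 4383 genes tested. By itself the time point passed the test at 3 h, 6 h (-1.35, adjusted p = 1.11e-07) and 24 h (-0.71). At 24, 48 and 96 h IL10RA averaged -0.42 and at 1, 3 and 6 h -0.92, and this difference of 0.50 ± 0.10 was itself called (limma adjusted p = 0.00207, 13.5% of 4383 genes called). Each of the 3 IL10RA probes fell when tested alone, by means of -0.77, -0.55 and -0.69, where 33% of 13071 probes were called (15.9% lower). Their late values differed. At 48 and 96 h the first probe read 0.06 and -0.04, the second -0.53 and -0.20 and the third -0.47 and -0.50. The late minus early difference was not tested by probe.

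IL10RA also fell, less, with IL-6 in OCI-Ly10. The ratios were -0.44 and -0.28 at 1 h, -0.52 and -0.36 at 3 h, -0.05 and -0.03 at 6 h and -0.13 at 24 h. The 7 arrays were all below 0, with those at 1 and 3 h lowest and those at 6 h close to 0. The mean over 1 to 24 h was -0.24 ± 0.06 (SE, limma adjusted p = 0.0221). At the 4 times both cytokines share, IL10RA was lower with IL-10 than with IL-6, a difference of -0.63 ± 0.08 (-0.87 against -0.24, limma adjusted p = 4.32e-05, 9.5% of 3644 genes called). The single array at 0.5 h of IL-6 read 0.20, and with it in the window the mean was -0.15 (adjusted p = 0.102). The IL-6 call was also lost without replicate 1 at 1 h (adjusted p = 0.0677), 3 h (0.0713) or 6 h (0.0528), and with the array run as a random block (0.196). Among the 3 probes 1 passed by itself (-0.37, adjusted p = 0.0170, 2.49% of 8188 probes called).

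With JAK inhibitor I in OCI-Ly10, IL10RA rose. The ratios were 0.37 and 0.54 at 3 h and 0.21 and 0.31 at 6 h, so all 4 arrays lay above 0 and both at 3 h lay above both at 6 h. The mean was 0.36 ± 0.08 (SE, limma adjusted p = 0.0117); 1 of the 6 receptor genes was called here, against 3.26% of 4480 genes (1.09% higher). All 3 probes averaged above 0, at 0.35, 0.22 and 0.52, and the last passed by itself (adjusted p = 0.00789, 3.51% of 13915 probes called). Set against the mean of the other 5 experiments, IL10RA stood 0.51 ± 0.08 higher with the inhibitor (limma adjusted p = 7.68e-04, 4.09% of 3106 genes called). That mean is pulled down by the cytokine experiments (-0.67 with IL-10 and -0.24 with IL-6). The call against 0 was lost without replicate 2 at 3 h (0.32, adjusted p = 0.145), without replicate 2 at 6 h (0.33, adjusted p = 0.0793) and in a fit of these 4 arrays alone (adjusted p = 0.118). At 3 and 6 h IL10RA was lower with IL-6 than with the inhibitor, a difference of -0.60 ± 0.11 (-0.24 against 0.36, adjusted p = 0.00347, 2.17% of 4001 genes called), and this difference was still called when each array in turn was left out.

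In the other experiments IL10RA did not pass the test. With the super-repressor in OCI-Ly3 its 7 arrays from 2 to 6 h ran from -0.01 to 0.33 with a mean of 0.15 (adjusted p = 0.0898). The 3 arrays of the super-repressor in OCI-Ly10 averaged -0.09. With STAT3 siRNA the arrays read 0.26 at 8 h, 0.20 and -0.13 at 24 h and 0.13 and 0.16 at 48 h, and the 4 at 24 and 48 h averaged 0.09. Against the mean of the other experiments, which the IL-10 arrays pull down, the super-repressor in OCI-Ly3 left IL10RA 0.27 ± 0.07 higher (adjusted p = 0.0167, 14% of 3106 genes called).

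IL10RB, the shared signalling chain of the IL-10 receptor, rose with IL-10 in OCI-Ly3 while its partner fell. Its ratios were 0.12 and 0.07 at 1 h, 0.22 and 0.06 at 3 h, 0.25 and -0.24 at 6 h, 0.29 and 0.24 at 24 h, 0.54 at 48 h and 0.66 at 96 h. The 2 latest arrays were the highest, and 1 array at 6 h was the only one below 0. Those at 48 and 96 h make up an array run, grouped by array number, that holds no other array. That run and these times therefore cannot be told apart. The window mean was 0.28 ± 0.05 (SE, limma adjusted p = 1.75e-04), and the single arrays at 48 h (adjusted p = 0.0331) and 96 h (adjusted p = 0.00395) passed by themselves with the spread taken from the other groups. The late times exceeded the early ones by 0.41 ± 0.10 (0.49 against 0.08, adjusted p = 0.00769), a call lost when arrays were scaled to equal spread (0.28, adjusted p = 0.0735). The 2 probes of IL10RB disagreed. One averaged 0.52 (adjusted p = 5.12e-06, 33% of 13071 probes called) and reached 0.98 at 48 h and 1.07 at 96 h. The other averaged 0.05 (adjusted p = 0.687) and read 0.09 and 0.26 at those times.

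IL10RB rose with the super-repressor in OCI-Ly3. Its ratios were 0.10 and 0.24 at 2 h, 0.21 at 3 h, 0.27 and 0.19 at 4 h and 0.39 and 0.46 at 6 h, all 7 above 0 and highest at 6 h. The mean was 0.26 ± 0.06 (SE, limma adjusted p = 0.00723), and with the array run as a random block the adjusted p was 0.0681. Tested alone, the probe that averaged 0.05 with IL-10 was called here (0.30, adjusted p = 0.0365, 14.1% of 13287 probes called). The other read 0.18 without a call (adjusted p = 0.117). In OCI-Ly10 the super-repressor arrays at 3, 6 and 24 h read 0.27, 0.22 and 0.28, a mean of 0.26 ± 0.08 that missed the threshold (adjusted p = 0.383) with 1 array a time point. The difference between the lines was 0.06 (95% interval -0.17 to 0.30, adjusted p = 0.994); limma called 0 of 4384 genes between lines, and 0 of the 6 receptor genes had an unadjusted p under 0.05. Against the mean of the other 5 experiments IL10RB in OCI-Ly3 was not called (0.13, adjusted p = 0.161). With IL-6, the inhibitor and the siRNA its means were -0.01, 0.08 and 0.01, none called.

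**Figure D1:**
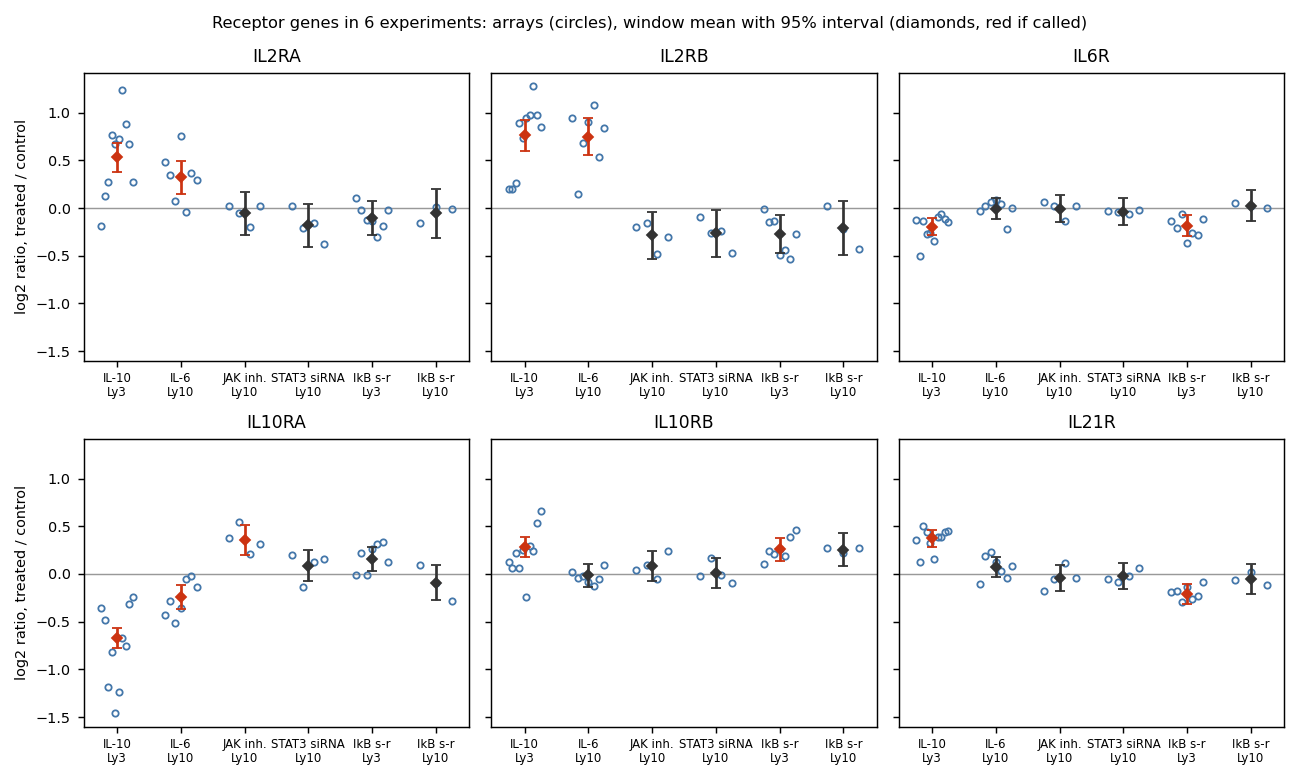
Log2 ratios of treated over control (vertical axis) for each receptor gene in the 6 experiments (horizontal axis; IkB s-r is the super-repressor). Circles are arrays of the tested time window, diamonds the window mean with its 95% interval, red where the limma adjusted p was under 0.05. IL10RA lies below 0 with both cytokines and above 0 with the JAK inhibitor, while IL2RB lies above 0 with both cytokines.

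Over the 6 genes, IL-10 in OCI-Ly3 gave 4 higher (IL2RA, IL2RB, IL10RB, IL21R) and 2 lower (IL6R, IL10RA). The experiment moved many genes: 35.3% of 4383 were called, 16.1% higher and 19.2% lower. The median of the 4383 window means was -0.02. IL-6 in OCI-Ly10 gave 2 higher (IL2RA, IL2RB) and 1 lower (IL10RA), against 4.54% of 3301 genes called, 3.48% higher and 1.06% lower. By single time points, 18 pairs of a member and a time were called. With IL-10, 3.69%, 6.79%, 9.8%, 6.12% and 14.7% of all genes were called at 3, 6, 24, 48 and 96 h. The shares were 1.15% at 6 h of IL-6 and 2.09% at 6 h of the super-repressor in OCI-Ly3.

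IL2RB, the signalling beta chain of the IL-2 and IL-15 receptors, rose with both cytokines. With IL-10 its gene averages were 0.20 and 0.20 at 1 h, 0.26 and 0.89 at 3 h, 0.74 and 0.95 at 6 h, 0.97 and 1.28 at 24 h, 0.98 at 48 h and 0.85 at 96 h. All 10 arrays were above 0, both at 1 h lowest, and every array from 6 h on was above 0.7. The window mean was 0.76 ± 0.08 (SE, limma adjusted p = 3.85e-07), the 54th highest of 4383 genes, and each of the times 6, 24, 48 and 96 h passed by itself. The late times exceeded the early ones by 0.44 ± 0.16 (adjusted p = 0.0705); with the replicate number as a block this difference was called (adjusted p = 0.0332).

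With IL-6 the IL2RB averages were 0.41 at 0.5 h, 0.94 and 0.15 at 1 h, 0.68 and 0.90 at 3 h, 1.08 and 0.54 at 6 h and 0.84 at 24 h. Each of the 8 arrays lay above 0, and replicate 2 at 1 h was the lowest. The mean over 1 to 24 h was 0.75 ± 0.09 (SE, limma adjusted p = 1.55e-04), the 7th highest of 3301 genes, and the call was kept under all 21 alternative settings. At shared times the mean with IL-10 was 0.69 and with IL-6 0.75, a difference of -0.06 (95% interval -0.32 to 0.20, adjusted p = 0.818). With the median over probes in place of their mean the difference was 0.14 (adjusted p = 0.686), and single probes, described next, differed in its sign.

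The gene average of IL2RB joined probes that did not behave alike. Numbered in the order of their identifiers, probes 1, 2 and 3 averaged 1.49 ± 0.09, 1.38 ± 0.09 and 1.53 ± 0.08 (SE) with IL-10, each called by itself; 33% of 13071 probes were. Their values followed each other closely, with 0.59, 0.41 and 0.57 on the first array at 1 h, 1.86, 1.72 and 1.73 on the first array at 24 h and 2.22, 1.92 and 2.09 at 48 h. Probe 4 averaged 0.04 and probe 5 -0.07, neither called, and probe 6 had values on too few arrays to be tested. With IL-6 probes 1 to 3 averaged 0.65, 0.83 and 0.87, each called (adjusted p = 0.00231, 1.91e-04 and 1.06e-04; 2.49% of 8188 probes called). Probe 4 averaged 0.65 there, without a call (adjusted p = 0.116), and probes 5 and 6 had too few values. The values of probe 4 ran from -0.35 to 1.96. At 1 h it read 1.96 on replicate 1 and -0.25 on replicate 2. Probes 1 to 3 read 0.51, 0.43 and 0.88 on that replicate 1 and 0.33, 0.24 and 0.31 on replicate 2. At the shared times probes 1 and 3 were higher with IL-10 than with IL-6, by 0.57 ± 0.14 (1.22 against 0.65, limma adjusted p = 0.0186) and 0.46 ± 0.13 (1.33 against 0.87, adjusted p = 0.0451), where 6.95% of 9147 probes were called. The difference was 0.37 ± 0.14 for probe 2 (adjusted p = 0.137) and -0.57 ± 0.27 for probe 4 (adjusted p = 0.245), neither called. With IL-10 the gene average therefore lies below what probes 1 to 3 show. Its value on an array depends in part on which of the 6 probes had a value there.

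IL2RB was below 0 where signalling was blocked, without a call at the level of the gene average. With the inhibitor its ratios were -0.20 and -0.15 at 3 h and -0.48 and -0.31 at 6 h, a mean of -0.28 ± 0.12 (SE, adjusted p = 0.227). With STAT3 siRNA they were -0.09 and -0.26 at 24 h and -0.24 and -0.47 at 48 h, a mean of -0.26 ± 0.12 (adjusted p = 0.207). All 8 of these arrays were below 0, while the siRNA array at 8 h, outside the window, read 0.0084. Of the 5 probes tested in each experiment 1 was called, the same one. This was probe 1, which fell in both, to -0.70 ± 0.13 with the inhibitor (adjusted p = 0.00646 over 13915 probes, 3.51% of them called) and -0.59 ± 0.13 with the siRNA (adjusted p = 0.0207 over 13030 probes, 4.14% called). Its 4 values with the inhibitor were -0.53 and -0.50 at 3 h and -0.88 and -0.89 at 6 h. With the siRNA probes 2, 3 and 6 read -0.48, -0.43 and -0.20 and probe 4 read 0.26, none called (adjusted p = 0.0896, 0.0583, 0.469 and 0.549). With the inhibitor probes 2, 4, 5 and 6 read between -0.30 and -0.05, none called, and probe 3 had too few values. Tests of single probes were added after the gene averages had been seen.

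At 3 and 6 h in OCI-Ly10, IL2RB was higher with IL-6 than with the inhibitor by 1.09 ± 0.17 (0.80 against -0.28, limma adjusted p = 0.00121). The super-repressor in OCI-Ly3 gave IL2RB -0.01 and -0.15 at 2 h, -0.13 at 3 h, -0.49 and -0.44 at 4 h and -0.54 and -0.28 at 6 h. All 7 were below 0 and those at 4 and 6 h lowest, but the mean of -0.27 ± 0.09 missed the threshold (adjusted p = 0.0570). Here too the probes differed. Probes 2 and 3 read -0.10 and -0.12 (adjusted p = 0.544 and 0.462). Probes 4 and 5 read -0.50 and -0.33 (adjusted p = 0.110 and 0.144). Probe 1 had no values and probe 6 too few. Against the mean of the other 5 experiments the IL2RB gene average was called lower (-0.42 ± 0.11, adjusted p = 0.0149). That mean is pulled up by the cytokine experiments (0.76 with IL-10 and 0.75 with IL-6). In OCI-Ly10 the super-repressor arrays read 0.02 at 3 h, -0.22 at 6 h and -0.43 at 24 h (mean -0.21, not called). Probe 4 averaged -1.13 there, while the other probes ran from -0.14 to 0.09, none called. The negative mean thus rests largely on probe 4.

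IL2RA, the alpha chain that gives the IL-2 receptor its high affinity, rose with IL-10. Its ratios were -0.18 and 0.12 at 1 h, 0.27 and 0.77 at 3 h, 0.67 and 0.72 at 6 h, 1.23 and 0.88 at 24 h, 0.67 at 48 h and 0.27 at 96 h. The arrays at 24 h were highest, and the only array below 0 was at 1 h. The window mean was 0.53 ± 0.07 (SE, limma adjusted p = 1.11e-05), with 6 h (0.70) and 24 h (1.06, adjusted p = 7.65e-05) called by themselves. Late and early times did not differ beyond the threshold (0.67 against 0.39, adjusted p = 0.256). All 3 IL2RA probes that could be tested alone rose, by 0.95, 0.42 and 0.27, where 33% of 13071 probes were called (17.1% higher).

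With IL-6, IL2RA rose on average by 0.32 ± 0.08 (SE, limma adjusted p = 0.0319), with 0.48 and 0.35 at 1 h, 0.08 and 0.76 at 3 h, -0.04 and 0.36 at 6 h and 0.29 at 24 h. Replicates at 3 and 6 h differed by more than this mean. They also rested on unlike probes, with 2 and 4 probes at 3 h and 1 and 3 at 6 h, and the array at 24 h had 1. By plain mean over arrays, the probe with values on 6 arrays read 0.06. The others, on 2 to 4 arrays, read 0.46 to 0.76. The part of this in the replicate gap was not tested. The call was lost without any 1 of 4 arrays, replicates 1 and 2 at 1 h (adjusted p = 0.0770 and 0.0664) and replicate 2 at 3 h (0.123) and 6 h (0.106), and with the array run as a random block (0.171). Only 1 of its 5 probes had enough values to be tested alone in this experiment, and it read 0.09 (adjusted p = 0.731). IL2RA was not called in the 4 experiments that blocked signalling, where its means were -0.06 with the inhibitor, -0.18 with the siRNA and -0.10 and -0.06 with the super-repressor in OCI-Ly3 and OCI-Ly10. Of its 4 probes tested alone with the super-repressor in OCI-Ly3, 1 fell (-0.31, adjusted p = 0.0323, 14.1% of 13287 probes called). The others read -0.06, -0.12 and -0.14.

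IL2RA and IL2RB are also genes of activated T and NK cells, and markers of those cells were read in the same experiments. With IL-6, 2 of 10 tested T and NK cell markers rose, where 4.54% of all genes were called, the protease gene GZMB (1.05 ± 0.14, 6 of 6 arrays above 0) and the kinase gene LCK (0.29 ± 0.07). GZMB fell with STAT3 siRNA (-1.09 ± 0.16). With IL-10, where 35.3% of all genes were called, 2 of 15 rose (CD4 and CD3E, 0.26 and 0.17) and 1 fell (KLRD1, -0.18). Of 5 myeloid markers 3 rose with IL-10, MNDA by 1.22, CD14 by 0.60 and CD68 by 0.19. MNDA fell with the inhibitor (-0.92) and the siRNA (-0.48). Of 7 B cell markers, 2 rose (CD74 and CD22) and CD79A fell with IL-10, and CD79B rose with the inhibitor (0.68). Ratios give no level for any of these markers, and their part in the receptor results was not tested.

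**Figure D2:**
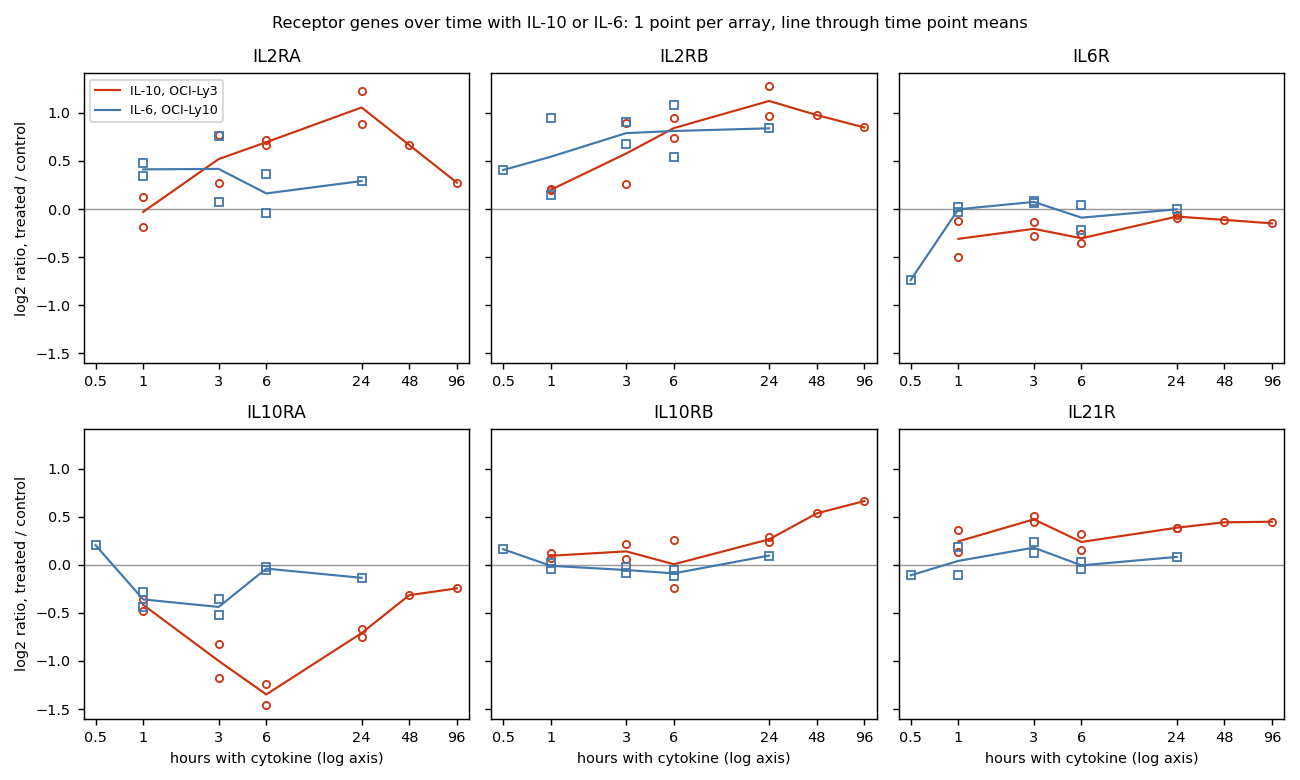
Log2 ratios of the 6 receptor genes over time (hours, log axis) with IL-10 in OCI-Ly3 (red circles) and IL-6 in OCI-Ly10 (blue squares); each point is an array and lines join time point means. IL10RA was lowest at 6 h of IL-10 (-1.35) and nearer 0 at 96 h (-0.24), while IL10RB was highest at 96 h (0.66).

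**Figure D3:**
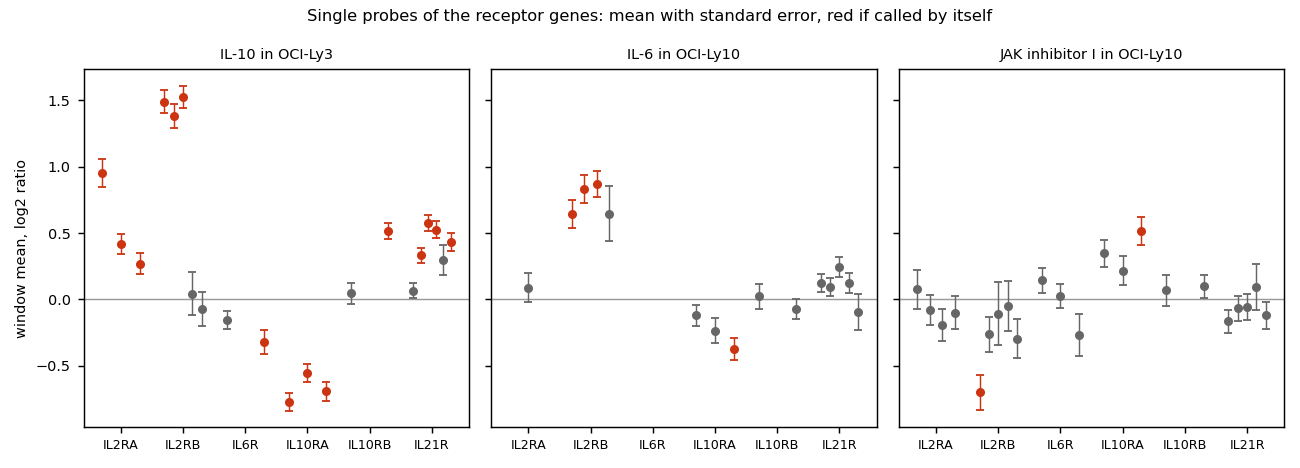
Window means (log2 ratio) with standard errors of the single probes that could be tested, by gene, for IL-10, IL-6 and the JAK inhibitor; red marks a limma adjusted p under 0.05 over all probes. With IL-10, 3 IL2RB probes lie between 1.38 and 1.53 and 2 near 0.

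IL21R, the receptor chain for IL-21, rose with IL-10 at a level that changed little over time. Its ratios were 0.36 and 0.13 at 1 h, 0.50 and 0.44 at 3 h, 0.32 and 0.16 at 6 h, 0.39 and 0.38 at 24 h, 0.44 at 48 h and 0.45 at 96 h. All 10 arrays lay above 0, between 0.13 and 0.50. The window mean was 0.37 ± 0.04 (SE, limma adjusted p = 1.76e-06), and 3, 24, 48 and 96 h passed by themselves. Late and early times differed by 0.11 (95% interval -0.07 to 0.29, not called). Of 6 probes, 4 rose by themselves, by 0.33 to 0.58, and 2 did not pass, where 33% of 13071 probes were called (17.1% higher). Of the 4 probes with a value on all 40 arrays, 2 rose, by 0.58 and 0.53, and the other two read 0.30 (adjusted p = 0.0542) and 0.07 (adjusted p = 0.381).

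IL-6 did not move IL21R past the threshold (0.07 ± 0.05, adjusted p = 0.414). At the shared times it was higher with IL-10 than with IL-6 by 0.26 ± 0.07 (0.34 against 0.07, limma adjusted p = 0.0196). That call was lost with the array run as a random block (adjusted p = 0.168), without replicate 1 of IL-6 at 1 h (0.0555) and without replicate 1 of IL-10 at 1 h (0.0572).

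With the super-repressor in OCI-Ly3, IL21R fell. The ratios were -0.19 and -0.18 at 2 h, -0.30 at 3 h, -0.14 and -0.26 at 4 h and -0.23 and -0.09 at 6 h. All 7 arrays were below 0 within a narrow range. The mean was -0.21 ± 0.05 (SE, limma adjusted p = 0.0113), and without replicate 1 at 6 h the adjusted p was 0.0526. Tested alone, 3 of its 6 probes fell, by means of -0.38, -0.26 and -0.36 (14.1% of 13287 probes called), and the others read 0.05, -0.02 and -0.30 without a call. The 4 probes with a value on all 40 arrays read 0.05, -0.38, -0.26 and -0.30. In OCI-Ly10 the mean was -0.05, and the difference between lines was -0.20 (95% interval -0.41 to 0.01, adjusted p = 0.994). The single arrays before the window read 0.08 at 1 h and -0.18 at 1.5 h for IL21R, and 0.17 and 0.09 for IL10RB. IL21R means with the inhibitor and the siRNA were -0.04 and -0.02.

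IL6R, the ligand-binding chain of the IL-6 receptor, fell slightly with IL-10. Its ratios were -0.12 and -0.50 at 1 h, -0.14 and -0.28 at 3 h, -0.26 and -0.35 at 6 h, -0.09 and -0.07 at 24 h, -0.11 at 48 h and -0.15 at 96 h. All 10 arrays were below 0, and no time point passed by itself. The mean was -0.19 ± 0.04 (SE, limma adjusted p = 0.00238). Of the 2 probes tested alone 1 fell (-0.32, adjusted p = 0.00985) and the other read -0.16 (adjusted p = 0.0859). Of all 13071 probes tested with IL-10, 33% were called (15.9% lower).

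IL6R showed no call with its own ligand over 1 to 24 h of IL-6, where 7 arrays ran from -0.22 to 0.09 (mean -0.01, 95% interval -0.12 to 0.10). Both arrays at 3 h and replicate 1 at 6 h rested on 1 probe each. No IL6R probe had enough values in that window to be tested alone. The array at 0.5 h, outside that window, read -0.74 from 1 probe and passed by itself (adjusted p = 0.00728, 1.16% of 3356 genes called); it has no replicate. The difference between IL-10 and IL-6 was -0.22 ± 0.07 (-0.23 against -0.01, adjusted p = 0.0572), and with the replicate number as a block it was called (adjusted p = 0.0472). With the super-repressor in OCI-Ly3, IL6R fell by a mean of -0.19 ± 0.05 (adjusted p = 0.0251); its 7 values were -0.13, -0.21, -0.06, -0.37, -0.26, -0.28 and -0.12. That call was lost without any 1 of 4 arrays, replicate 2 at 2 h (adjusted p = 0.0765), replicates 1 and 2 at 4 h (0.0699 and 0.0511) and replicate 1 at 6 h (0.0956), and none of the 3 probes passed alone.

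The super-repressor thus gave 1 higher (IL10RB) and 2 lower (IL6R, IL21R) of the 6 genes in OCI-Ly3, against 14% of 4390 genes called, 9.16% higher and 4.87% lower. With the array run as a random block none of the 3 was called. In OCI-Ly10 it gave 0 of 6, with 1 gene (IL10RB) at an unadjusted limma p under 0.05, and 0.532% of 4515 genes were called. STAT3 siRNA gave 0 of 6 as well, with 1 gene (IL2RB) at an unadjusted limma p under 0.05, against 3.31% of 4346 genes. These counts come from limma, and the fit for OCI-Ly10 with the super-repressor took its spread from the other arrays, since each of its times has 1 array.

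Taken over all 26 time points of the 6 experiments, the members ran together or apart as follows, as a description, since arrays of an experiment share their cells and possibly their control RNA. The means of IL2RA and IL2RB had a Pearson correlation of 0.86 over 25 time points. IL21R followed both (0.73 with IL2RA, 0.70 with IL2RB). IL10RA ran opposite to IL2RA (-0.77), IL2RB (-0.65) and IL21R (-0.64). The points of the cytokine experiments stood apart from the rest in IL2RB. How far the correlations restate that gap was not tested. IL6R and IL10RB had correlations between -0.09 and 0.22 with every other member. Those of IL6R include the unreplicated array at 0.5 h of IL-6, which read -0.74 from 1 probe. It is the IL6R mean farthest from 0, and correlations without it were not computed. The genes most like IL10RA were RCBTB2, the apoptosis inhibitor BCL2 and MPEG1 (0.87, 0.82 and 0.80). Those most like IL2RB were the clock gene CRY1 (0.92), SNX9 (0.91) and IL2RA itself, and those most like IL2RA were KLHL6 (0.91), SNX9 (0.89) and the transcriptional repressor GFI1 (0.87). IL21R was most like POU2F2, ELF3 and TAP1 (0.86, 0.85 and 0.83), and IL10RB most like the Fc receptor gene FCGR2B (0.88), TMSB4X (0.87) and PTPRC, which encodes CD45 (0.86). For IL6R the highest values were lower, led by RETSAT (0.75), and they too include that array at 0.5 h of IL-6.

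**Figure D4:**
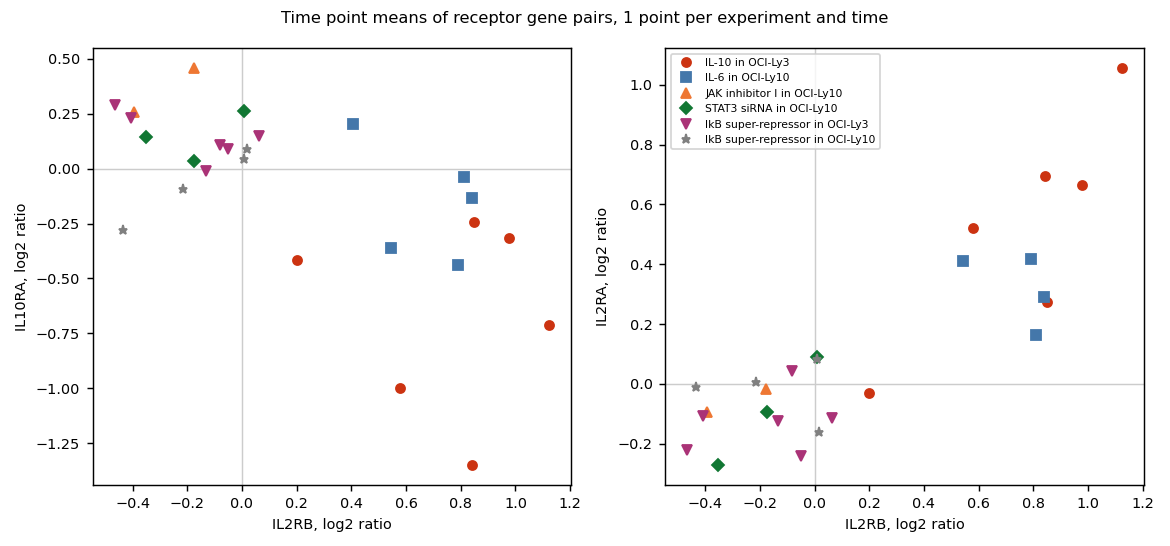
Time point means (log2 ratio) of IL10RA against IL2RB (left) and of IL2RA against IL2RB (right), with 1 point per experiment and time. IL-10 and IL-6 points lie at the right of each panel; the Pearson correlations are -0.65 over 26 and 0.86 over 25 time points.

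Other cytokine receptor chains were called in the IL-10 experiment alone. Of 25 tested there, 5 rose and 3 fell, 8 in all against 35.3% of all genes. The interferon gamma receptor chains IFNGR1 (0.71 ± 0.05) and IFNGR2 (0.21 ± 0.05), IL13RA1 (0.37 ± 0.05), IL15RA (0.22 ± 0.05) and IL11RA (0.20 ± 0.05) rose. CSF2RB (-0.26 ± 0.06), the leptin receptor LEPR (-0.18 ± 0.06) and IL12RB1 (-0.18 ± 0.05) fell. The list's median was 0.02 and that of all genes -0.02. In the other 5 experiments limma called 0 of 21 to 26 tested chains; 3 had an unadjusted p under 0.05 with IL-6, 5 and 1 with the super-repressor in OCI-Ly3 and OCI-Ly10, 2 with the siRNA and 4 with the inhibitor. Of 7 receptor chains of the IL-1, IL-17 and IL-18 family, 2 rose with IL-10, IL1RAP (0.33) and the decoy receptor IL1R2 (0.16).

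Among the ligands, 4 of 12 rose with IL-10 and 1 fell, 5 in all, where 35.3% of all genes were called. IL10 itself rose (0.78 ± 0.10, adjusted p = 7.50e-06, 10 of 10 arrays above 0), as did IL6 (0.48 ± 0.10), IL7 (0.28) and LIF (0.27), while IL24 fell (-0.25). IL6 fell with the super-repressor in OCI-Ly3 (-0.53 ± 0.12). In the IL-10 experiment, then, the RNA of the ligand rose while that of its binding chain IL10RA fell.

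Downstream of the receptors, 4 of 5 STAT genes rose with IL-10 (16.1% of all genes rose), led by STAT3 (1.37 ± 0.11) and STAT5B (0.32 ± 0.07), and of 2 JAK kinase genes tested JAK2 fell (-0.22 ± 0.07). STAT3 fell with the inhibitor (-0.69 ± 0.17, adjusted p = 0.0264), and STAT5A fell with the super-repressor in OCI-Ly3 (-0.26 ± 0.08). Feedback inhibitors switch off JAK signalling at the receptor. Of 14 tested with IL-10, 7 were called, against 35.3% of all genes; 6 rose, with SOCS2 (1.91 ± 0.08) and the phosphatase genes PTPN1 (1.89 ± 0.07) and PTPN2 (0.91 ± 0.05) highest, and SOCS6 fell (-0.24). With IL-6, 3 of 12 rose, against 3.48% of all genes, SOCS3, PTPN1 (0.52 ± 0.08) and CISH (0.39 ± 0.10). SOCS2 fell with the super-repressor in OCI-Ly3 (-0.72 ± 0.10) and with STAT3 siRNA (-0.65 ± 0.13), and SOCS5 rose with the inhibitor (0.81 ± 0.08) and with the super-repressor in OCI-Ly3 (0.22 ± 0.07).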

How the data were processed

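RNA of treated and control cells was hybridised together on 40 spotted 2-colour arrays, and the deposited log2 ratios of Cy5 over Cy3 were used. The base of the logarithm is not stated; values from -7.868 to 5.81 go past what base 10 would give, so they were read as log2; a natural log would look alike. Array medians of -0.031 to 0.011 show that the authors' deposited values were centred; the sources used here do not name their background correction or normalization. There was no dye swap, and a ratio tested against 0 leaves out the spread of the controls. Of all cells 12.6% were blank, and 8862 to 14947 probes had a value on an array; the number of arrays limits the precision.

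Arrays were median-centred and probes with a single symbol (10169 of 15246, from the platform annotation) averaged per gene. The 40 arrays were fitted together in limma 3.58.1 (R 4.3.3), each experiment and time having its own mean. The mean over a time window was tested against 0 and adjusted by Benjamini-Hochberg over all tested genes (those with values at every time point and on at least 75% of window arrays), with a threshold of 0.05. Windows were 1 to 24 h (IL-6), 1 to 96 h (IL-10), 2 to 6 h (super-repressor, OCI-Ly3), 3 to 24 h (OCI-Ly10), 24 and 48 h (siRNA) and 3 and 6 h (inhibitor). Differences used the same fit at shared times. Replicate numbers paired the arrays of the IL-10 experiment (deviations correlated 0.39 to 0.59 over 4 time points) and of the IL-6 experiment (0.19 to 0.23 over 3), from the data alone. The siRNA (0.25) and the inhibitor (0.22) gave a single such value each, over 2 time points. In each of these experiments, arrays labelled with the same replicate number lay in the same array run. Replicate number and run therefore cannot be told apart. The main fit had no term for either, so its standard errors treat these arrays as independent. Members, gene lists and windows were chosen with earlier results of these data known. Named genes were all 6 members, up to 3 called genes of each list and direction, any gene a result turns on, and the 3 most alike genes per member over at least 20 time points; for IL6R the first of the 3 is given. Markers, IFNGR2, IL11RA and single probes were named after their values were seen. The code was tested on simulated data.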

Additional observations from a re-analysis of the deposited data

Results flagged for a closer look

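Both IL10RA and IL10RB gave a different value at the late times of IL-10 (24, 48 and 96 h) than at the early times (1, 3 and 6 h) by a test of the difference itself. For IL10RA the late minus early difference was 0.50, and for IL10RB it was 0.41. Both chains of the IL-10 receptor thus had the higher ratio late, IL10RA by a return towards 0 and IL10RB by a move away from it. The latest 2 time points have 1 array each, in an array run that holds no other array, and for IL10RB the 2 probes disagreed. For IL10RA the probes also differed late. At 48 and 96 h the first read 0.06 and -0.04, while the others ran from -0.53 to -0.20.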

How the results depend on the processing

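Of 19 called member values (6 experiments and 5 differences), 9 kept their call and direction under every alternative run, 10 lost the call under at least 1, and 1 turned: IL21R with the super-repressor in OCI-Ly3 was 0.049 when the probe with the most values stood for the gene. That probe was the first of 4 with values on all 40 arrays, and the other 3 read -0.38, -0.26 and -0.30; IL10RA and IL2RA also had 2 probes tied in this way. Of 47 values not called, 6 were called under at least 1 alternative. Members called with IL-6 went from 3 to 1 with the median over probes, the probe with the most values, the arrays of the experiment alone, the run as a random block, a comparison with the other 5 experiments, or a window from 0.5 h; leaving out single arrays gave 1 to 3. With the super-repressor the count went from 3 to 0 in OCI-Ly3 with the run as a block (1 to 5 without single arrays), and from 0 to 1 in OCI-Ly10 after scaling to equal spread. With the inhibitor it went from 1 to 0 in a fit of its own arrays, and was 0 to 1 without single arrays. The IL-10 late minus early count went from 2 to 1 with scaling to equal spread (2 to 3 without single arrays), and the IL-10 minus IL-6 count from 2 to 1 with the run as a block (1 to 3). The cause of these changes was not tested. With IL-10 the count was 4 to 6, where IL10RB (0.05) and IL21R (0.07) were lost with the probe that had the most values, which for IL21R was the first of the same 4.

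With the replicate block, members called were 6 with IL-10, 3 with IL-6, 1 with the inhibitor and 0 with the siRNA, as without it; 3 members' values gained a call, IL2RB late minus early with IL-10 (0.44), IL6R between the cytokines (-0.22) and IL2RB with the super-repressor in OCI-Ly3 (-0.27, adjusted p = 0.0253), and no member's call was lost. In the last experiment the numbers did not pair the arrays (correlations -0.37 to 0.34). Over all genes the block moved the calls from 150 to 314 (IL-6), 616 to 1105 (super-repressor, OCI-Ly3), 144 to 417 (siRNA) and 146 to 260 (inhibitor). Over all alternatives the calls over all genes ranged from 32 to 455 (IL-6), 697 to 1912 (IL-10), 103 to 1105 and 1 to 238 (super-repressor, OCI-Ly3 and OCI-Ly10), 0 to 417 (siRNA) and 12 to 260 (inhibitor). A fit of its own arrays and a replicate block could not be fitted for the super-repressor in OCI-Ly10, which has no replicates. Signal over background was not analysed here.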
